A study of Mus musculus with 12 samples.

Results

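The genes described here are 35 genes of the unfolded protein response and of the integrated stress response, taken by name out of the 50508 genes in the count table of the series. They comprise 8 chaperones and lectins of the endoplasmic reticulum (ER), 4 protein disulfide isomerases, 3 ER J-domain co-chaperones, 4 genes of ER-associated degradation and 7 sensors and transcription factors. The rest are 4 feedback and effector genes of the stress response and 5 genes of amino acid synthesis and transport. The cells were sorted singly into wells of 96-well plates as Dclk1-tdTom+ cells of adult intestinal LMMP preparations (longitudinal muscle with the myenteric plexus) of C57BL/6 mice, in a CD49b+ gate labelled glial and a CD49b- gate labelled neuronal. There were 4 conditions with 3 plates each: irradiated CD49b+, homeostasis CD49b+, irradiated CD49b- and homeostasis CD49b-.

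All mice carried the Dclk1-tdTom reporter and received 3 mg of tamoxifen at 8 or 9 weeks of age. The age was 8, 9 and 9 weeks for irradiated replicates 1, 2 and 3. For homeostasis replicates 1, 2 and 3 it was 8, 9 and 8 weeks. Age was thus not balanced over the treatments, and its part was not tested. Irradiated mice were given 10.5 Gy 7 days after tamoxifen and were sampled 3 days after irradiation. Homeostasis mice were sampled 10 days after tamoxifen without irradiation. Each sort pooled 2 mice, and within a treatment both gates of a replicate number were sorted out of 1 pool. The labels do not describe the reporter construct further.

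The ER folds and glycosylates proteins destined for membranes and secretion, with Hspa5 (BiP) as its main Hsp70 chaperone. When unfolded proteins accumulate, the ER membrane sensors IRE1, PERK and ATF6 are activated. IRE1 splices Xbp1 mRNA, and spliced XBP1 and cleaved ATF6 drive genes for chaperones and for ER-associated degradation, which returns misfolded proteins to the cytosol. PERK and other kinases phosphorylate the translation factor eIF2, which lowers protein synthesis as a whole while favouring translation of ATF4. ATF4 drives genes of amino acid supply and, through Ppp1r15a, the dephosphorylation of eIF2. Xbp1 splicing and eIF2 phosphorylation are not seen in gene counts.

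Several of these genes are textbook carriers of ER stress elements. Promoters that hold a match are therefore shown, from members that did and did not differ between the gates. Promoter windows of 250 bases before to 50 bases after the annotated start were matched for 32 of the 35 members in RefSeq (build GRCm38.p6). Motifs were searched on both strands, and the matches shown do not overlap each other. The ER stress response element (ERSE, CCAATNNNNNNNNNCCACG) was present in windows of 8 members, which is 25% of those matched, against 0.137% of 27025 genes. These 8 were Hspa5, Hsp90b1 with 2 matches, Calr, Canx, Creld2, Pdia6, Dnajc3 and Syvn1. The second element (ERSE-II, ATTGGNCCACG) lay in the windows of Dnajb11 and Herpud1, against 0.0444% of genes. The core of the unfolded protein response element (UPRE, TGACGTG) was found in the window of Hspa5, against 2.22% of genes. The core of the C/EBP-ATF response element (CARE, TGATGNAA), which ATF4 binds, was found in 5 members, Herpud1, Trib3, Chac1, Asns and Slc7a11 with 2 matches, against 4.51% of genes. Among members called between the gates over both treatments, Pdia3, Pdia4, P4hb, Sel1l, Xbp1, Atf5, Ppp1r15a, Psat1 and Phgdh held no match. Sdf2l1, Dnajb9, Edem1, Atf4, Ddit3 and Slc3a2, not called there, held none either, nor did the untested Ern1, Eif2ak3 and Ddit4. A match describes the letters in a window and is no evidence of binding in these cells. In the sequences below, 5′ to 3′ along the gene's strand, capitals mark the matches.
Hspa5 (chr2:34771840-34772139, + strand; UPRE core at -157 to -151 and ERSE at -65 to -47 from the start): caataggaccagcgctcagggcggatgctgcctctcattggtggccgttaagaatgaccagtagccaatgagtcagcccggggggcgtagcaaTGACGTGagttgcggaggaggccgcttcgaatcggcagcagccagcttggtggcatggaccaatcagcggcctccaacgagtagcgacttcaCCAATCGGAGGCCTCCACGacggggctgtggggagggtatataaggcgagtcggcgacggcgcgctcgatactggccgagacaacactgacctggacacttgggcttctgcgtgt
Calr (chr8:84846882-84847181, - strand; ERSE at -162 to -144): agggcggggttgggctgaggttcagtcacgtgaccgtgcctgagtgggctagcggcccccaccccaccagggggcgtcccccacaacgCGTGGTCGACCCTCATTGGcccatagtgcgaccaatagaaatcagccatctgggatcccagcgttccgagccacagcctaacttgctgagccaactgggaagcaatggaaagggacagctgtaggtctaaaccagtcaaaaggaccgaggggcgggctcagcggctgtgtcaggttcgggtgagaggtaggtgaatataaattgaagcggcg
Dnajc3 (chr14:118937682-118937981, + strand; ERSE at -105 to -87): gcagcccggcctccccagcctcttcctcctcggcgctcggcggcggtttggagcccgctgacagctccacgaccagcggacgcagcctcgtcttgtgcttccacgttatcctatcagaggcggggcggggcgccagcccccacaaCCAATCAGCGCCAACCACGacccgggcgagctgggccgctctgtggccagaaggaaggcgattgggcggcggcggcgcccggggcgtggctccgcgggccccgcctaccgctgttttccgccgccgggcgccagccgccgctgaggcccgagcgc
Canx (chr11:50325624-50325923, - strand; ERSE at -145 to -127): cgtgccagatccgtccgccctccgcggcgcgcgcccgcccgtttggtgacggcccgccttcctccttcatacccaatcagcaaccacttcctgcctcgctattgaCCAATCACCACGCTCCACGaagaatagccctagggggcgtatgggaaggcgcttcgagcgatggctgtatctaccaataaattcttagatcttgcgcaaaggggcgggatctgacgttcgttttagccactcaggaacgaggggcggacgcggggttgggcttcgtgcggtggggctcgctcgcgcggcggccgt
Herpud1 (chr8:94386179-94386478, + strand; CARE core at -112 to -105 and ERSE-II at -52 to -42): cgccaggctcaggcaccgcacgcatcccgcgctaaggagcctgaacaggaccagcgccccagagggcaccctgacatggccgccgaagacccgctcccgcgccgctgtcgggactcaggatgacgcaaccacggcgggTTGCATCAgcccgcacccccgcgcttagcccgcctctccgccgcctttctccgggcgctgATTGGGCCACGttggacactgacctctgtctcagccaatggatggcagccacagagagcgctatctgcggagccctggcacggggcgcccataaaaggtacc
Asns (chr6:7693160-7693459, - strand; CARE core at -23 to -16): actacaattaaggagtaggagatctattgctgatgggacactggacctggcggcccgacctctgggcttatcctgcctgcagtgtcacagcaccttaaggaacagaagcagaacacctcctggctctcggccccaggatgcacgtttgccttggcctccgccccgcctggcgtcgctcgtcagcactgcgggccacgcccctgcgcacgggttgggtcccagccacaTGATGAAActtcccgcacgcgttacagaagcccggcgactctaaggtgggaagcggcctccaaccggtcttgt

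**Figure D1:**
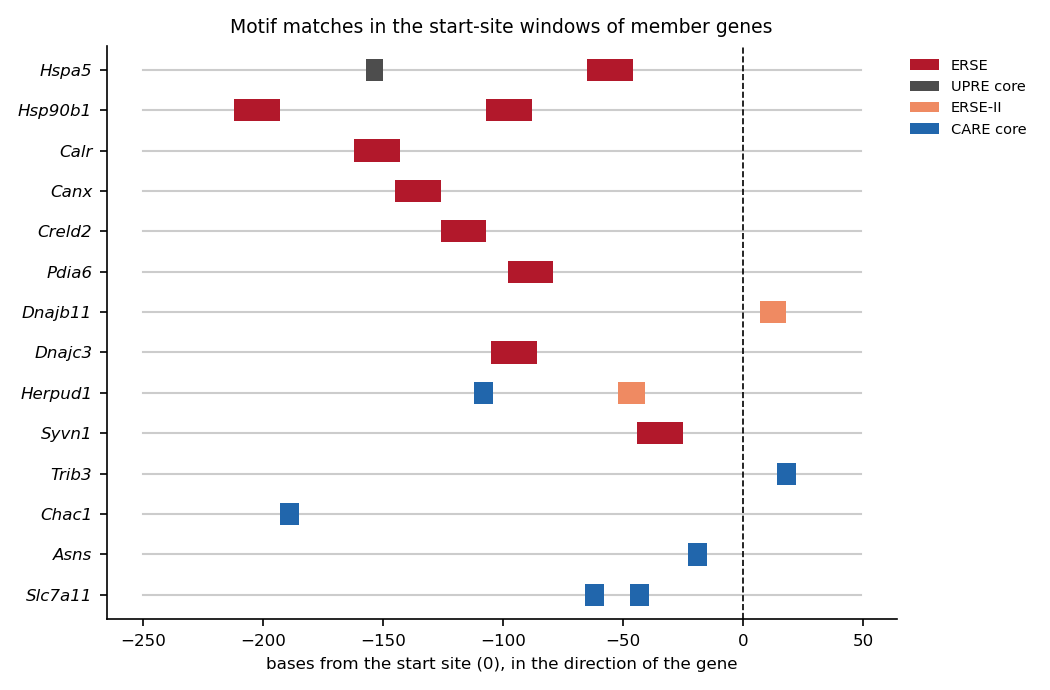
Positions of the 4 motifs in the promoter windows of the members that hold a match, as distance in bases from the annotated start site. All ERSE matches lie before the start, and the ERSE-II match of Dnajb11 lies after it.

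Of 1150 wells, 964 held at least 1000 UMIs (unique molecular identifiers, 1 per captured molecule) and 500 genes and were used. The retained UMIs per plate were 150561 to 243340 for irradiated CD49b+, 174244 to 190123 for homeostasis CD49b+, 541729 to 742100 for irradiated CD49b- and 610743 to 746674 for homeostasis CD49b-. Glia markers summed to 29614 to 36897 CPM (counts per 1e+06 UMIs, TMM-scaled) on CD49b+ plates and to 180.5 to 527.4 CPM on CD49b- plates, and all 10 were higher in CD49b+. Neuron markers summed to 210.1 to 1906 CPM on CD49b+ plates and to 8108 to 9100 CPM on CD49b- plates, and all 9 tested were lower in CD49b+, with Uchl1 at 0 UMIs. There were 4 retained CD49b+ wells, 1 on irradiated replicate 1 and 3 on irradiated replicate 2, that held 55 or more neuron-marker UMIs, against at most 7 in any other CD49b+ well. They carried 13.4% and 15.4% of the UMIs of those plates, and the gate calls gained without them are given with the split by treatment. Of 19 genes induced by dissociation or in the immediate early response, 17 were higher and 1 was lower in CD49b+, with sums of 19099 to 30193 CPM on CD49b+ plates and 4834 to 7119 CPM on CD49b- plates. Their part in the gate differences below was not tested. Fibroblast markers reached 193.6 CPM on CD49b+ plates and 397 CPM on CD49b- plates, and smooth muscle markers 102 CPM on CD49b+ plates and 119.8 CPM on CD49b- plates. Markers of plasma and B cells, macrophages, interstitial cells of Cajal, endothelium and epithelium summed to at most 56.9 CPM on CD49b+ plates and 48.3 CPM on CD49b- plates.

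Chaperones and enzymes of the ER were mostly higher in CD49b+ cells, and 3 stress-response genes were lower. Among the 29 members with enough UMIs to be tested, 14 were higher and 3 were lower in CD49b+ than in CD49b- cells, averaged over both treatments. Of all 8555 genes tested, 29.6% were higher and 32.5% were lower, 62.1% in either direction. The 17 of 29 members called in either direction are thus about the share found over all genes. The median log2 fold change of the tested members was 0.62, against -0.13 over all genes tested. The higher genes were mainly ER chaperones, isomerases and co-chaperones, with Ppp1r15a and the serine synthesis genes Phgdh and Psat1. The lower genes were Xbp1, Atf5 and Asns. In sums over a plate, fewer expressing cells and less RNA per cell cannot be told apart. CD49b+ wells also held fewer UMIs, and a higher CPM there is a higher share of a smaller total.

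**Figure D2:**
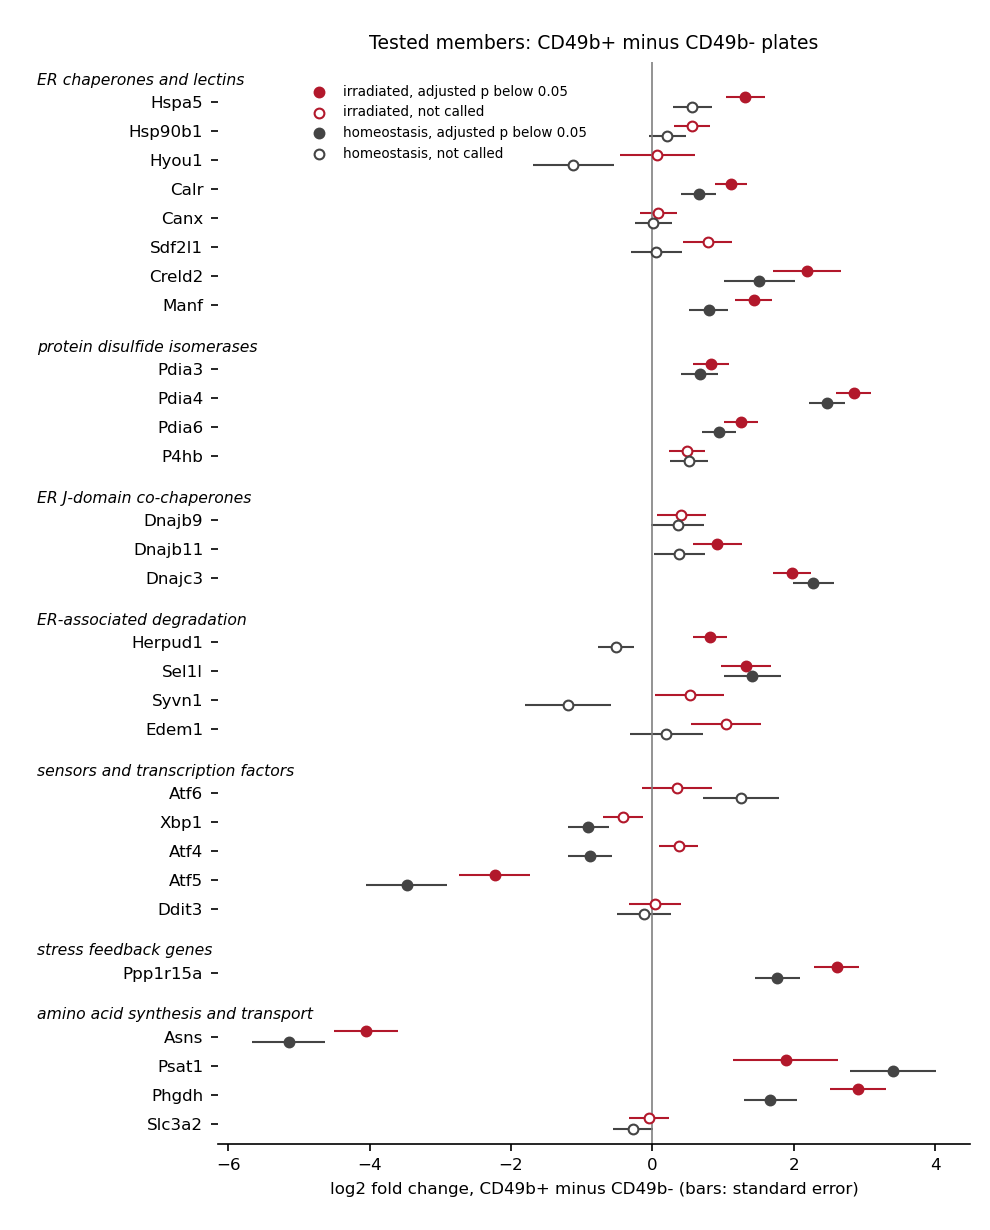
Log2 fold change of CD49b+ minus CD49b- for the 29 tested members, irradiated in red and homeostasis in grey, by role. Bars are standard errors and filled points passed an adjusted p of 0.05. Pdia4, Dnajc3, Sel1l, Ppp1r15a and Phgdh lie to the right and Atf5 and Asns to the left in both treatments.

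Of the 8 ER chaperones and lectins, 4 were higher in CD49b+ cells and 4 did not pass the test. Hspa5, the master chaperone that also restrains the sensors, had 729, 1363 and 1644 CPM on irradiated and 498, 724 and 940.3 CPM on homeostasis CD49b+ plates, against 415, 464 and 619 CPM on irradiated and 439, 456 and 566 CPM on homeostasis CD49b- plates (values here and below are replicates 1, 2 and 3). The 3 irradiated CD49b+ plates were above every CD49b- plate, and of the homeostasis CD49b+ plates replicate 1 lay inside the CD49b- range. The log2 fold change was 0.94 (standard error 0.19, adjusted p = 0.000206) over both treatments, 1.32 (standard error 0.27, adjusted p = 0.000446) after irradiation and 0.57 (standard error 0.27, adjusted p = 0.0894) in homeostasis, where it was not called in this fit. Calr, a lectin chaperone that also stores calcium, had 311, 295 and 394 CPM on irradiated and 210.2, 149.98 and 210.1 CPM on homeostasis CD49b+ plates, against 160.4, 141 and 160.2 CPM on irradiated and 139, 96.8 and 126 CPM on homeostasis CD49b- plates. Its log2 fold change was 0.88 (standard error 0.17, adjusted p = 8.11e-05), and the single overlap lay at homeostasis CD49b+ replicate 2. Manf, an ER-resident and secreted protein with neurotrophic activity, had 526, 326 and 749 CPM on irradiated and 183, 248 and 330.1 CPM on homeostasis CD49b+ plates, against 224, 156 and 208 CPM on irradiated and 154, 142 and 144 CPM on homeostasis CD49b- plates. It was higher by 1.11 (standard error 0.19, adjusted p = 2.75e-05) on the log2 scale, and every pool showed that direction.

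Creld2, an ER protein induced by unfolded proteins, had 67.9, 66.1 and 114 CPM on irradiated and 44.3, 31.03 and 85.0 CPM on homeostasis CD49b+ plates, against 15.5, 6.78 and 30.6 CPM on irradiated and 22.9, 20.3 and 13.4 CPM on homeostasis CD49b- plates. All 6 CD49b+ plates lay above all 6 CD49b- plates, with a log2 fold change of 1.85 (standard error 0.35, adjusted p = 7.49e-05). In homeostasis alone the Creld2, Calr and Manf calls each ended when homeostasis CD49b+ replicate 3 was left out (0.92, 0.49 and 0.48, adjusted p = 0.235, 0.172 and 0.234). Hsp90b1, the ER Hsp90, had a log2 fold change of 0.38 (standard error 0.18, adjusted p = 0.0738) and missed the threshold, but passed it under other settings, among them all wells thinned to 1000 UMIs (0.66, adjusted p = 0.00777). Canx, the membrane-bound partner of Calr, was at 0.05 (standard error 0.19, adjusted p = 0.84) and Sdf2l1, a cofactor of Hspa5, at 0.42 (standard error 0.25, adjusted p = 0.15). Hyou1, which exchanges nucleotide on Hspa5, was at -0.52 (standard error 0.39, adjusted p = 0.252) and passed the threshold as lower without homeostasis CD49b+ replicate 2 (-1.35, adjusted p = 0.018).

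All 4 protein disulfide isomerases, which form and rearrange disulfide bonds, were higher in CD49b+ cells over both treatments. Pdia4 had 271, 397 and 419 CPM on irradiated and 243, 233 and 250.1 CPM on homeostasis CD49b+ plates, against 50.2, 50.2 and 49.5 CPM on irradiated and 36.0, 43.7 and 49.7 CPM on homeostasis CD49b- plates. The groups were far apart, the lowest CD49b+ plate lying above 4 times the highest CD49b- plate, and the log2 fold change was 2.66 (standard error 0.18, adjusted p = 7.68e-12). With every well thinned to 1000 UMIs, 27.7% of irradiated and 23.3% of homeostasis CD49b+ wells held a Pdia4 UMI, against 2.26% of irradiated and 3.82% of homeostasis CD49b- wells. Without thinning these shares were 61.0%, 43.0%, 29.3% and 26.0% in the same order of groups. Pdia6 had 379, 322 and 362 CPM on irradiated and 326, 259 and 250.1 CPM on homeostasis CD49b+ plates, against 174, 118 and 153 CPM on irradiated and 108, 139 and 185 CPM on homeostasis CD49b- plates. Its plates did not overlap between the gates, at a log2 fold change of 1.10 (standard error 0.17, adjusted p = 7.08e-06).

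Pdia3, which works with Calr and Canx on glycoproteins, had 254, 644 and 559 CPM on irradiated and 382, 419 and 480.2 CPM on homeostasis CD49b+ plates, against 236, 274 and 309 CPM on irradiated and 257, 255.9 and 293 CPM on homeostasis CD49b- plates. The irradiated CD49b+ replicate 1 lay inside the CD49b- range, and the log2 fold change was 0.75 (standard error 0.18, adjusted p = 0.00099). Within single treatments this call ended under several alternatives, among them without irradiated CD49b+ replicate 2 (0.52, adjusted p = 0.141) and without homeostasis CD49b+ replicate 3 (0.50, adjusted p = 0.185). P4hb, the classical isomerase and a subunit of collagen prolyl hydroxylase, had 198, 149.9 and 146 CPM on irradiated and 138, 149.98 and 115 CPM on homeostasis CD49b+ plates, against 87.0, 125 and 135 CPM on irradiated and 83.5, 96.8 and 101 CPM on homeostasis CD49b- plates. The log2 fold change was 0.51 (standard error 0.18, adjusted p = 0.0207), it was called in neither treatment alone, and the call ended without irradiated CD49b+ replicate 1 (0.39, adjusted p = 0.0865), homeostasis CD49b+ replicate 1 or 2, or homeostasis CD49b- replicate 1 (adjusted p = 0.0524 to 0.102), and with no filter on low counts (0.38, adjusted p = 0.207). With wells thinned to 1000 UMIs, P4hb was called in homeostasis at 1.55 (adjusted p = 0.00345), against 0.52 (standard error 0.27, adjusted p = 0.109) without thinning.

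Among the co-chaperones that hand unfolded proteins to Hspa5, Dnajc3 and Dnajb11 were higher in CD49b+ cells and Dnajb9 was not called. Dnajc3, which also inhibits PERK, had 226, 273 and 197 CPM on irradiated and 160.4, 248 and 165 CPM on homeostasis CD49b+ plates, against 67.6, 57.0 and 53.9 CPM on irradiated and 27.8, 40.6 and 48.3 CPM on homeostasis CD49b- plates. Every CD49b+ plate exceeded 2 times the highest CD49b- plate, and the log2 fold change was 2.13 (standard error 0.20, adjusted p = 2.62e-09). Dnajb11 had 113, 110.2 and 178 CPM on irradiated and 66.4, 56.9 and 150.1 CPM on homeostasis CD49b+ plates, against 46.4, 61.1 and 99.0 CPM on irradiated and 78.6, 65.5 and 67.1 CPM on homeostasis CD49b- plates. The gates overlapped, only 4 of 6 pools showed the direction, and the log2 fold change of 0.65 (standard error 0.25, adjusted p = 0.027) shrank to 0.29 (adjusted p = 0.347) without homeostasis CD49b+ replicate 3. The Dnajb11 call also ended without irradiated CD49b+ replicate 3, irradiated CD49b- replicate 1 or 2, or homeostasis CD49b- replicate 2 or 3 (adjusted p = 0.0581 to 0.115). With no filter on low counts it ended too (0.52, adjusted p = 0.0926). Dnajb9 was at 0.39 (standard error 0.26, adjusted p = 0.195).

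ER-associated degradation gave 1 call over both treatments. Sel1l, the adaptor that holds the retrotranslocation complex together, had 107, 79.4 and 121 CPM on irradiated and 55.3, 82.7 and 50.02 CPM on homeostasis CD49b+ plates, against 36.7, 35.3 and 48.1 CPM on irradiated and 34.4, 23.4 and 13.4 CPM on homeostasis CD49b- plates. The lowest CD49b+ plate lay just above the highest CD49b- plate, and the log2 fold change was 1.37 (standard error 0.27, adjusted p = 0.000108). Syvn1, the ubiquitin ligase that Sel1l stabilises, was not called at -0.33 (standard error 0.40, adjusted p = 0.477), nor was Edem1, a lectin for misfolded glycoproteins, at 0.62 (standard error 0.36, adjusted p = 0.134). Herpud1, a membrane scaffold of the complex, had 266, 229 and 279 CPM on irradiated and 111, 98.3 and 175 CPM on homeostasis CD49b+ plates, against 153, 144 and 141 CPM on irradiated and 196, 149.8 and 203 CPM on homeostasis CD49b- plates. After irradiation all 3 CD49b+ plates lay above all 3 CD49b- plates, and in homeostasis 2 of 3 lay below all of them. Its log2 fold change between the gates was 0.82 (standard error 0.24, adjusted p = 0.00766) after irradiation (0.64, adjusted p = 0.108, with no filter on low counts), -0.51 (standard error 0.25, adjusted p = 0.0978) in homeostasis and 0.15 (standard error 0.17, adjusted p = 0.455) over both. Without homeostasis CD49b+ replicate 3, Herpud1 was called lower in homeostasis (-0.89, adjusted p = 0.0196).

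The transcription factors ran the other way where they passed the test. Xbp1, the factor activated by IRE1, had 238, 189.6 and 190.5 CPM on irradiated and 71.9, 109 and 235 CPM on homeostasis CD49b+ plates, against 286, 233 and 303 CPM on irradiated and 234, 299.6 and 254 CPM on homeostasis CD49b- plates. The gates overlapped, and the log2 fold change was -0.66 (standard error 0.20, adjusted p = 0.00713). In homeostasis alone it was -0.91 (standard error 0.29, adjusted p = 0.0131), a call that ended without homeostasis CD49b+ replicate 1 (-0.68, adjusted p = 0.0719) or 2, or CD49b- replicate 2. The homeostasis call also ended with wells thinned to 1000 UMIs (-0.75, adjusted p = 0.104). Atf5, which like Atf4 is translated when eIF2 is phosphorylated, had 5.65, 8.82 and 31.7 CPM on irradiated and 0, 10.3 and 10.0 CPM on homeostasis CD49b+ plates, against 58.0, 71.9 and 74.3 CPM on irradiated and 76.9, 95.2 and 69.8 CPM on homeostasis CD49b- plates. No CD49b+ plate reached the lowest CD49b- plate, at a log2 fold change of -2.85 (standard error 0.38, adjusted p = 8.33e-07). The CD49b+ libraries held 12 Atf5 UMIs in all, 2 of them in the wells with neuron-marker UMIs.

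Atf4, the central factor of the integrated stress response, had 119, 137 and 121 CPM on irradiated and 71.9, 51.7 and 60.0 CPM on homeostasis CD49b+ plates, against 77.3, 128 and 84.5 CPM on irradiated and 115, 125 and 99.3 CPM on homeostasis CD49b- plates. All 3 homeostasis CD49b+ plates lay below all homeostasis CD49b- plates, with a log2 fold change of -0.88 (standard error 0.31, adjusted p = 0.0198), and this call ended without replicate 2 of either gate (-0.85 without the CD49b+ plate, adjusted p = 0.0609; -0.79 without the CD49b- plate, adjusted p = 0.0568). After irradiation the value was 0.37 (standard error 0.27, adjusted p = 0.281), and over both treatments -0.25 (standard error 0.21, adjusted p = 0.288). Ddit3 (CHOP), a factor of prolonged stress, was at -0.04 (standard error 0.27, adjusted p = 0.909) and Atf6 at 0.81 (standard error 0.36, adjusted p = 0.0584), both without a call. Ddit3 overlaps Mars on the other strand, and reads could not be assigned to a strand here. Called members with an overlapping gene are listed with the processing below.

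Ppp1r15a, the phosphatase subunit that ends eIF2 phosphorylation, had 441, 229 and 457 CPM on irradiated and 299, 124 and 335 CPM on homeostasis CD49b+ plates, against 67.6, 61.1 and 53.9 CPM on irradiated and 63.8, 68.7 and 88.6 CPM on homeostasis CD49b- plates. All CD49b+ plates lay above all CD49b- plates, with a log2 fold change of 2.19 (standard error 0.22, adjusted p = 1.30e-08). It was the only tested member of its role group. Its direction was that of the dissociation genes above, and their part in it was not tested.

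The amino acid genes split between the gates. Asns, which makes asparagine (chr6:7675169-7693254, - strand, GRCm38), had 17.0, 8.82 and 6.35 CPM on irradiated and 0, 15.5 and 0 CPM on homeostasis CD49b+ plates, against 160.4, 185 and 199 CPM on irradiated and 209.5, 181 and 196 CPM on homeostasis CD49b- plates. The 6 CD49b+ plates held 9 Asns UMIs in all, 4 of them in the wells with neuron-marker UMIs and the 3 of homeostasis in a single well, whereas the CD49b- plates held 356 UMIs after irradiation and 390 in homeostasis. The log2 fold change was -4.60 (standard error 0.35, adjusted p = 6.26e-11), and it was -5.24 (adjusted p = 1.16e-11) without the wells with neuron-marker UMIs. From the UMI totals in homeostasis, the Asns share of CD49b+ libraries was lower by a factor of 35.1 than that of CD49b- libraries, with an exact 95% counting interval of 11.9 to 171.

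Phgdh, the first enzyme of serine synthesis, had 96.1, 146 and 133 CPM on irradiated and 111, 51.7 and 160.1 CPM on homeostasis CD49b+ plates, against 15.5, 17.6 and 16.0 CPM on irradiated and 24.6, 48.4 and 28.2 CPM on homeostasis CD49b- plates. No plate of the CD49b+ gate reached down to the CD49b- range, and the log2 fold change was 2.29 (standard error 0.27, adjusted p = 1.49e-07). Psat1, the next enzyme of that path, had 17.0, 22.05 and 6.35 CPM on irradiated and 49.8, 46.5 and 40.0 CPM on homeostasis CD49b+ plates, against 1.93, 6.78 and 2.91 CPM on irradiated and 3.27, 4.68 and 4.03 CPM on homeostasis CD49b- plates. Irradiated CD49b+ replicate 3 lay inside the CD49b- range, with 1 UMI. The log2 fold change was 2.65 (standard error 0.49, adjusted p = 7.15e-05) over both treatments and 1.88 (standard error 0.75, adjusted p = 0.0445) after irradiation, a call that ended under 13 alternatives, among them the fit with the pool as a block (1.86, adjusted p = 0.0901) and without irradiated CD49b+ replicate 2 (1.46, adjusted p = 0.268). Of the 31-base words in Phgdh, 55.9% also occur in other genes, most of all in Gm7901, so its counts are uncertain. Slc3a2, the shared heavy chain of amino acid exchangers, was at -0.16 (standard error 0.20, adjusted p = 0.496).

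**Figure D3:**
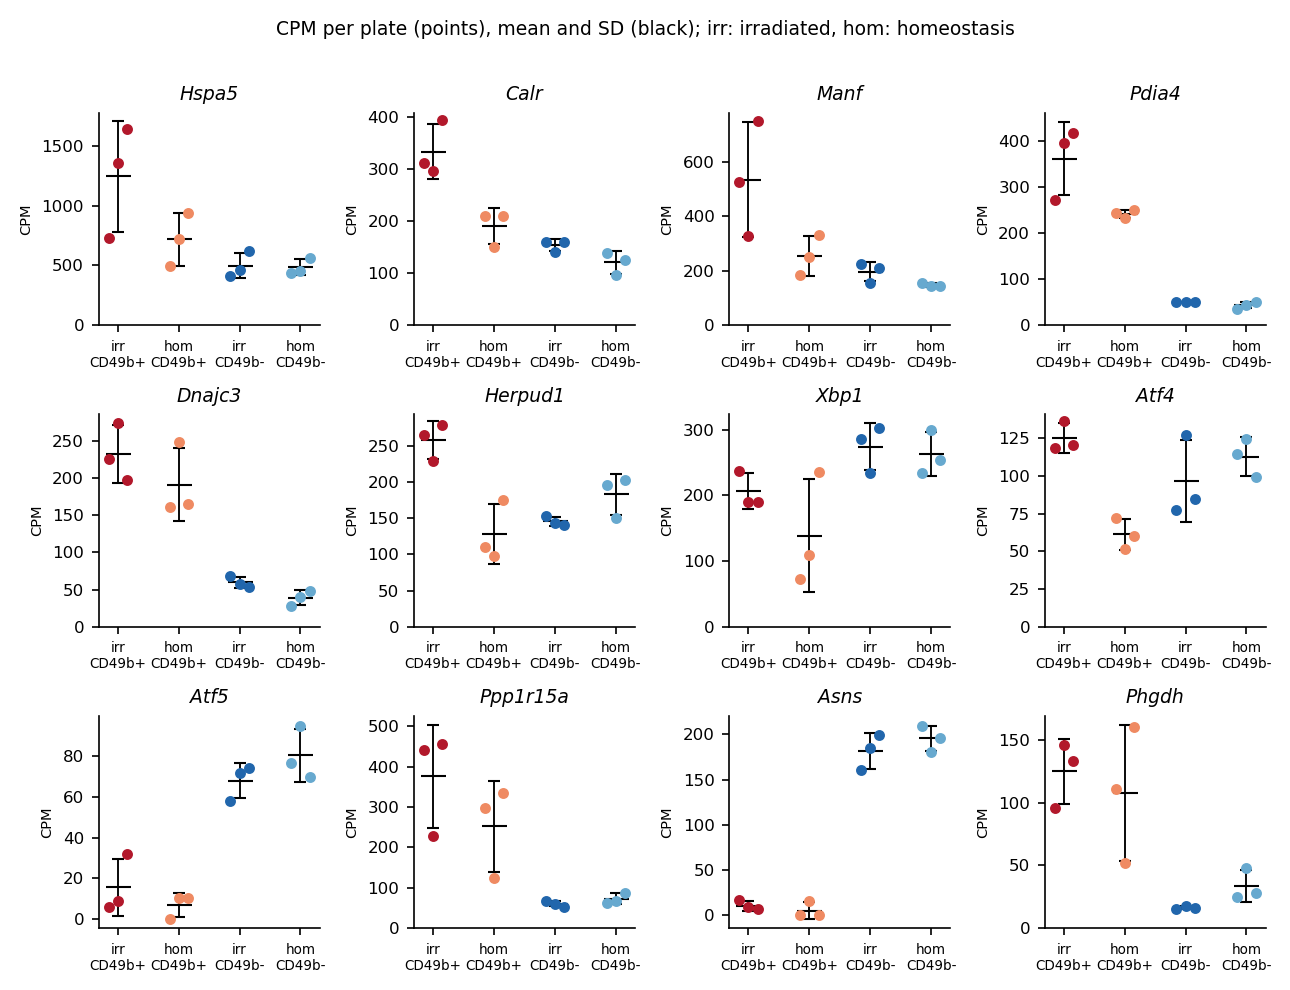
CPM of 12 members on each of the 12 plates; each point is a plate, and black lines are the group mean and SD (n = 3). Pdia4, Dnajc3 and Ppp1r15a are higher on all CD49b+ plates than on any CD49b- plate, and Atf5 and Asns are lower on all of them.

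The 6 members with too few UMIs to be tested were Ern1 and Eif2ak3, which encode IRE1 and PERK, Ddit4, an inhibitor of growth signalling, Trib3, an inhibitor of ATF4, Chac1, which degrades glutathione, and Slc7a11, the cystine transporter. In the order irradiated CD49b+, homeostasis CD49b+, irradiated CD49b- and homeostasis CD49b-, Ern1 had 1, 1, 8 and 5 UMIs and Eif2ak3 had 5, 3, 6 and 8. Ddit4 had 18, 9, 15 and 15 UMIs, and Trib3 had 1 UMI, on an irradiated CD49b- plate. Slc7a11 had 0, 8, 3 and 9 UMIs, the 8 all on homeostasis CD49b+ replicate 3 and 6 of them in a single well. Of the ER membrane sensors, IRE1 and PERK were therefore too sparse here to compare. Chac1 had 3, 2, 31 and 30 UMIs. Its share of homeostasis CD49b+ libraries was lower by a factor of 4.05 than that of CD49b- libraries, with a 95% counting interval of 1.03 to 34.9. After irradiation the factor was 3.01 with an interval of 0.939 to 15.4, and all 3 CD49b+ UMIs there were in the wells with neuron-marker UMIs. With no filter on low counts Chac1 was lower (log2 fold change -1.91, adjusted p = 0.0145) and Ddit4 higher (1.41, adjusted p = 0.0206) in CD49b+ over both treatments. The same fit ended the calls of P4hb and Dnajb11 over both treatments.

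Split by treatment, 11 members were higher and 4 were lower in CD49b+ cells in homeostasis, against 23.5% and 26.0% of all genes tested. After irradiation 14 were higher and 2 were lower, against 22.2% and 21.1%. Xbp1 and Atf4 were called lower in homeostasis but not after irradiation, while Hspa5, Herpud1 and Dnajb11 were called higher after irradiation but not in homeostasis. Several of these calls rested on single plates. In homeostasis Calr was no longer called without CD49b+ replicate 1 or 3 or CD49b- replicate 2, Manf without replicate 2 or 3 of either gate, Creld2 without replicate 3 of either gate, and Pdia3 without any 1 homeostasis plate other than CD49b- replicate 3. Sel1l lost its homeostasis call without CD49b+ replicate 2 (1.09, adjusted p = 0.0718). After irradiation Pdia3 was no longer called without irradiated CD49b+ replicate 2 or 3 or CD49b- replicate 1, and Dnajb11 without irradiated CD49b+ replicate 3, irradiated CD49b- replicate 1 or 2, or any homeostasis CD49b- plate. Other members passed the threshold with the 4 wells of 55 or more neuron-marker UMIs left out. These were Hspa5 (0.63, adjusted p = 0.0452) and Atf6 (1.32, adjusted p = 0.0477) in homeostasis, and Hsp90b1 (0.62, adjusted p = 0.0458), Sdf2l1 (0.85, adjusted p = 0.0445) and Edem1 (1.22, adjusted p = 0.0484) after irradiation. Over both treatments Hsp90b1 was then called as well (0.45, adjusted p = 0.0332). Leaving out a single homeostasis CD49b+ plate also added calls in homeostasis. Without replicate 2, Hyou1 (-2.72, adjusted p = 0.00778), Syvn1 (-2.43, adjusted p = 0.0225) and Chac1 (-5.75, adjusted p = 0.0391) were called lower. Without replicate 3, Herpud1 was called lower, as given above, and Atf6 higher (1.49, adjusted p = 0.0406). With wells thinned to 1000 UMIs, Hspa5 was called in homeostasis too (0.85, adjusted p = 0.0190). The same thinning ended the homeostasis calls of Manf (0.64, adjusted p = 0.142), Pdia3 (0.55, adjusted p = 0.125) and Xbp1 (-0.75, adjusted p = 0.104). With wells of at least 2000 UMIs and 1000 genes, the homeostasis calls of Calr (0.52, adjusted p = 0.103) and Atf4 (-0.64, adjusted p = 0.113) ended. With no filter on low counts Calr (0.58, adjusted p = 0.160) and Pdia3 (0.60, adjusted p = 0.0812) lost their homeostasis calls. Pdia3 (0.64, adjusted p = 0.06) and Dnajb11 (0.73, adjusted p = 0.125) then lost their calls after irradiation as well. A difference between the treatments was tested as the interaction, given with the irradiation results below.

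UMIs per retained well put these shares beside amounts. Hspa5 averaged 3.27 UMIs per irradiated and 1.87 per homeostasis CD49b+ well, against 3.69 per irradiated and 3.75 per homeostasis CD49b- well. Pdia4 averaged 0.958 and 0.623 in the same CD49b+ wells, against 0.365 and 0.332 in the CD49b- wells. Asns averaged 0.0282 and 0.0135, against 1.34 and 1.49. Of the 14 members with a higher share of UMIs in CD49b+ cells, 8 had fewer UMIs per CD49b+ well in both treatments: Hspa5, Calr, Manf, Pdia3, Pdia6, P4hb, Dnajb11 and Sel1l. Pdia4, Dnajc3, Ppp1r15a, Psat1 and Phgdh had more in both treatments, and Creld2 had more only after irradiation.

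Genes around the members, not members themselves, were compared in the same way. The counts in this and the next paragraph stand beside 29.6% higher and 32.5% lower of all genes tested, 62.1% in either direction. No list was tested as a set. Cytosolic aminoacyl-tRNA synthetases, many of which ATF4 drives, had 11 of 18 tested genes lower and 0 higher in CD49b+ cells, with a median log2 fold change of -0.88; examples were Nars (-1.69, adjusted p = 8.04e-08) and Farsb (-1.57, adjusted p = 0.000182). Other ER folding factors had 9 higher and 6 lower of 19, led by Serpinh1, the collagen chaperone (4.12, adjusted p = 3.49e-10), and Fkbp7, an ER prolyl isomerase (5.27, adjusted p = 2.04e-09). The translocon and signal peptide genes had 7 higher and 3 lower of 18, with the channel subunit Sec61a1 (2.29, adjusted p = 7.35e-10) and Tram1 (1.92, adjusted p = 1.80e-09) the most significant. N-glycan genes had 6 higher and 2 lower of 16, among them the cargo receptor Lman1 (2.03, adjusted p = 1.43e-08) and the oligosaccharyltransferase subunit Tusc3 (-1.74, adjusted p = 3.41e-07).

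Remaining genes of ER-associated degradation had 1 higher and 2 lower of 14, the lower ones being Vcp, the extracting ATPase (-0.96, adjusted p = 2.46e-05), and its cofactor Nploc4 (-1.41, adjusted p = 0.00589). The kinases, phosphatase and exchange factor of eIF2 had 1 higher, the interferon-induced kinase Eif2ak2 (2.04, adjusted p = 0.00473), and 7 lower of 12, among them Eif2b3 (-1.43, adjusted p = 0.000113). Other ATF4 targets and partners had 5 higher and 5 lower of 14, with Atf3 (2.72, adjusted p = 5.81e-11) and Cdkn1a (3.55, adjusted p = 9.80e-10) the most significant. Genes of ATF6 processing had 2 higher and 0 lower of 6, Mbtps1, the protease that cleaves ATF6 (0.82, adjusted p = 0.0247), and Nfyc (0.92, adjusted p = 0.034), a subunit of the factor that binds CCAAT. The serine and glycine list had 3 higher and 3 lower of 8, with the serine-producing phosphatase Psph at 3.27, adjusted p = 1.76e-06 and the mitochondrial serine carrier Sfxn1 at -3.11, adjusted p = 5.84e-08. In the cystine and glutathione list 2 were higher and 3 lower of 7, with the oxidative stress factor Nfe2l2 at 2.34, adjusted p = 1.68e-05 and the thioredoxin reductase Txnrd1 at -1.53, adjusted p = 0.00149. The numbers in brackets are log2 fold changes over both treatments with their adjusted p.

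Irradiation changed no member past the threshold in either gate. In CD49b- cells 0 of 29 members were called by edgeR's quasi-likelihood test, against 0.0468% of all genes tested, and 2 members had an unadjusted p below 0.05, as did 354 genes of all tested. They were Sel1l at 0.78 (standard error 0.35, adjusted p = 1) and Phgdh at -1.02 (standard error 0.40, adjusted p = 1). The median member log2 fold change of irradiated minus homeostasis was 0.02 in CD49b- cells, against 0.005 over all genes. In CD49b+ cells 0 of 29 were called, against 0.713% of all genes, and 8 members had an unadjusted p below 0.05, as did 910 genes. There 27 of the 29 members had a positive log2 fold change, as did 57.3% of all genes tested, and the medians were 0.55 over the members and 0.09 over all genes. DESeq2 called 1 member, Herpud1, in CD49b+ and none in CD49b-.

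**Figure D4:**
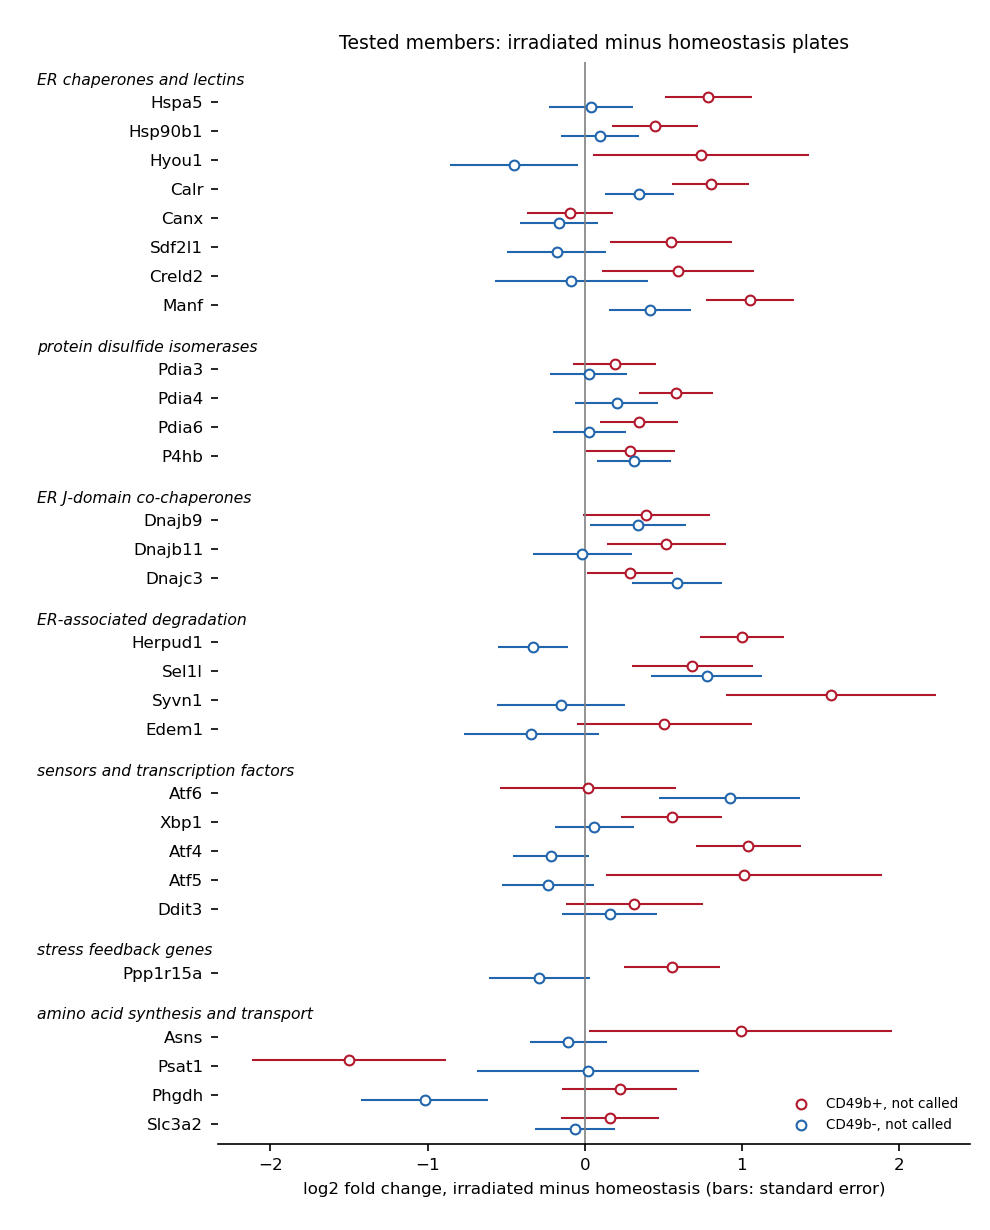
Log2 fold change of irradiated minus homeostasis for the 29 tested members, in CD49b+ and in CD49b- cells, by role. Bars are standard errors; no member passed an adjusted p of 0.05, and 27 of 29 CD49b+ values are above 0, against 15 of 29 CD49b- values.

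The positive values in CD49b+ cells were seen across the roles. Of the 8 chaperones 7 were positive, as were all 4 isomerases and all 3 J-domain co-chaperones. Summed over Herpud1, Sel1l, Syvn1 and Edem1, ER-associated degradation stood at 446.7, 401.3 and 450.8 CPM on irradiated CD49b+ plates, against 210.2, 232.7 and 245.1 CPM on homeostasis CD49b+ plates. The same sum was 235.7, 225.2 and 227.2 CPM on irradiated CD49b- plates, against 296.3, 226.3 and 252.3 CPM on homeostasis CD49b- plates. The CD49b+ sums did not overlap, and the CD49b- sums did. Over all 7 roles, 4 sums had every irradiated CD49b+ plate above every homeostasis CD49b+ plate (isomerases, J-domain co-chaperones, ER-associated degradation, and sensors and transcription factors). The other 3 overlapped (chaperones, feedback genes and amino acid genes). Apart from ER-associated degradation, the separated sums were close. The lowest irradiated and highest homeostasis CD49b+ plates had 1102.7 and 1095.4 CPM for isomerases and 390.2 and 375.1 CPM for J-domain co-chaperones. For sensors and transcription factors these were 387.3 and 375.1 CPM. How often sums of other genes separate in this way was not tested. Among CD49b- sums the J-domain co-chaperones lay narrowly above, the amino acid genes narrowly below, and 5 overlapped.

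Manf had the smallest adjusted p in CD49b+ cells, with 525.9, 326.3 and 749.2 CPM on irradiated plates, against 182.6, 248.2 and 330.1 CPM on homeostasis plates. Its log2 fold change was 1.05 (standard error 0.28, adjusted p = 0.0923), and it passed the threshold without irradiated CD49b+ replicate 2 (1.31, adjusted p = 0.0212) and with wells thinned to 1000 UMIs (1.35, adjusted p = 0.0333). Herpud1 had 265.8, 229.3 and 279.4 CPM on irradiated plates, against 110.6, 98.3 and 175.1 CPM on homeostasis plates. Every irradiated plate was above every homeostasis plate, at 0.998 (standard error 0.27, adjusted p = 0.0978) by edgeR and 0.96, adjusted p = 0.0378 by DESeq2, which called it. Atf4 had 118.8, 136.7 and 120.6 CPM on irradiated plates, against 71.9, 51.7 and 60.0 CPM on homeostasis plates, at 1.04 (standard error 0.33, adjusted p = 0.188).

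Calr, Pdia4, Herpud1 and Atf4 were the members with all 3 irradiated CD49b+ plates above all 3 homeostasis CD49b+ plates, a pattern found in 6.73% of all genes tested. Psat1 alone had them all below, as did 4.21% of all genes, with 17.0, 22.05 and 6.35 CPM on irradiated plates, against 49.8, 46.5 and 40.0 CPM on homeostasis plates (-1.50 (standard error 0.62, adjusted p = 0.35)). Calr was at 0.80 (standard error 0.25, adjusted p = 0.162), Hspa5 at 0.79 (standard error 0.28, adjusted p = 0.242), Pdia4 at 0.58 (standard error 0.23, adjusted p = 0.333) and Syvn1 at 1.57 (standard error 0.67, adjusted p = 0.379). In CD49b- cells Calr, Manf, Dnajc3, Sel1l and Atf6 lay above on all irradiated plates, as did 6.46% of genes, and Hyou1 and Phgdh below, as did 6.32%. Calr was thus separated in both gates without passing the test in either.

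Other measures moved with the irradiated CD49b+ plates. Neuron markers summed to 273 to 1906 CPM on irradiated CD49b+ plates and to 210.1 to 326 CPM on homeostasis CD49b+ plates, and 5 of 9 were called higher. With the 4 wells of 55 or more neuron-marker UMIs left out, 25 of 29 members were positive, with a median of 0.56. Leaving out single plates gave medians of 0.37 to 0.62. By the plate numbers in the labels, the irradiated plates of all replicates follow each other without a gap. Homeostasis replicate 1 comes before them, with a gap between, and homeostasis replicates 2 and 3 come directly after them. Plate sets were inferred from these numbers, and the labels do not say whether they mark runs. For replicates 2 and 3 plate set and irradiation cannot be told apart. Both treatments of replicate 1 were put in the same set despite the gap, which is an assumption. In replicate 1, 22 of 27 members with a UMI on both CD49b+ plates were higher on the irradiated plate, with a median log2 ratio of 0.52, against 14 of 29 and a median of -0.08 on CD49b- plates. With 1 plate a group this last comparison has no replicate check. Its treatments also differ in plate order and in mice, since a replicate number pairs the gates and not the treatments.

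The difference of the irradiation effects between the gates passed the test in 0 of 29 members, against 0.0117% of all genes; 4 members had an unadjusted p below 0.05, as did 648 genes. They were Herpud1 at 1.33 (standard error 0.35, adjusted p = 0.177), Atf4 at 1.25 (standard error 0.41, adjusted p = 0.351), Syvn1 at 1.72 (standard error 0.79, adjusted p = 0.622) and Phgdh at 1.24 (standard error 0.55, adjusted p = 0.609). DESeq2 called Herpud1 (1.29, adjusted p = 0.049). In the pathway lists 1 gene was called for irradiation, Cdkn1a, a cell cycle inhibitor driven by p53, in CD49b+ cells. It had 712.5, 577.7 and 527.0 CPM on irradiated CD49b+ plates, against 282.1, 72.4 and 65.0 CPM on homeostasis CD49b+ plates (log2 fold change 2.13, standard error 0.38, adjusted p = 0.00665).

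Within the CD49b- gate, wells were split by Nos1, the neuronal nitric oxide synthase that marks inhibitory nitrergic neurons of the gut. There were 254 wells with at least 2 Nos1 UMIs and 189 wells with none. Median UMIs per well were 6318 to 9299 over the 6 plates in Nos1-positive wells and 4939.5 to 7579.5 in Nos1-negative wells. The Nos1-positive wells were the deeper ones on 5 of 6 plates, narrowly so on irradiated replicate 3 (7624 against 7547.5), and the shallower ones on homeostasis replicate 1 (6318 against 6567). Of 23 members tested, 0 were higher and 5 were lower in Nos1-positive cells, against 6.85% and 5.17% of 5208 genes tested. The median member log2 fold change was -0.18. With no filter on low counts Phgdh and Chac1 were lower too. In that fit the calls of Calr (-0.44, adjusted p = 0.145) and Pdia3 (-0.27, adjusted p = 0.403) ended.

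Herpud1 had 124, 85.2 and 115 CPM in Nos1-positive wells of irradiated plates and 120, 112 and 181 CPM in those of homeostasis plates. The Nos1-negative wells of the same plates had 204, 208 and 204 CPM after irradiation and 263, 175 and 207 CPM in homeostasis. All 6 plates showed the lower value in Nos1-positive wells, at a log2 fold change of -0.77 (standard error 0.15, adjusted p = 0.000344). Asns had 124, 139 and 149 CPM in Nos1-positive wells of irradiated plates and 211, 129 and 134 CPM in those of homeostasis plates. In Nos1-negative wells it had 188, 217 and 282 CPM after irradiation and 213, 221 and 255.9 CPM in homeostasis. It was lower in 6 of 6 plates, at -0.65 (standard error 0.13, adjusted p = 0.000886), and lost the call with wells thinned to 3000 UMIs (-0.47, adjusted p = 0.161).

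Phgdh lay under the filter on low counts and had most of its UMIs in Nos1-negative wells. It had 3.03, 2.84 and 0 CPM in Nos1-positive wells of irradiated plates and 4.799, 9.52 and 2.97 CPM in those of homeostasis plates. In Nos1-negative wells it had 45.2, 25.6 and 54.0 CPM after irradiation and 32.8, 166 and 52.4 CPM in homeostasis. In UMIs these were 8 in 8 of the 254 Nos1-positive wells and 68 in 44 of the 189 Nos1-negative wells, of which a single well of homeostasis replicate 2 held 8. All 6 plates were lower in Nos1-positive wells, with a log2 fold change of -3.85 (standard error 0.44, adjusted p = 3.33e-16) when no gene was filtered. The limit on Phgdh counts from words shared with other genes holds here as well. Psat1, the next enzyme, had 8 UMIs in Nos1-positive and 7 in Nos1-negative wells.

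Chac1 had 17 UMIs in 14 Nos1-positive wells and 37 UMIs in 28 Nos1-negative wells, at -1.67 (standard error 0.44, adjusted p = 0.00635) with no filter. Dnajb11 ran between 36.9 and 83.8 CPM in Nos1-positive wells and between 45.2 and 148 CPM in Nos1-negative wells, at -0.73 (standard error 0.22, adjusted p = 0.0262), and was lower in 5 of 6 plates. Calr had 95.2 to 133 CPM in Nos1-positive wells and 119.9 to 226 CPM in Nos1-negative wells, at -0.48 (standard error 0.15, adjusted p = 0.0268). Pdia3 had 199.9 to 269.7 CPM in Nos1-positive wells and 239.8 to 335.8 CPM in Nos1-negative wells, at -0.31 (standard error 0.10, adjusted p = 0.0495). Calr and Pdia3 were lower in 6 of 6 plates. These last 3 calls each ended without the plate as a block (adjusted p = 0.0999 for Dnajb11, 0.0615 for Calr and 0.136 for Pdia3) and on leaving out single plates. These were irradiated replicates 2 and 3 and homeostasis replicates 1 and 2 for Dnajb11, irradiated replicates 1 and 3 and homeostasis replicate 1 for Calr, and every plate but homeostasis replicate 2 for Pdia3. With wells thinned to 3000 UMIs the calls of Calr (-0.38, adjusted p = 0.330) and Pdia3 (-0.45, adjusted p = 0.0803) ended. With 1 Nos1 UMI counted as positive they ended as well (-0.40, adjusted p = 0.0745 for Calr and -0.19, adjusted p = 0.285 for Pdia3). The Pdia3 call also ended without the wells whose glia-marker UMIs exceeded their neuron-marker UMIs (-0.29, adjusted p = 0.0768). Hspa5 was not called at -0.16 (standard error 0.10, adjusted p = 0.377), with medians over plates of 470.3 CPM in Nos1-positive and 471.4 CPM in Nos1-negative wells.

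**Figure D5:**
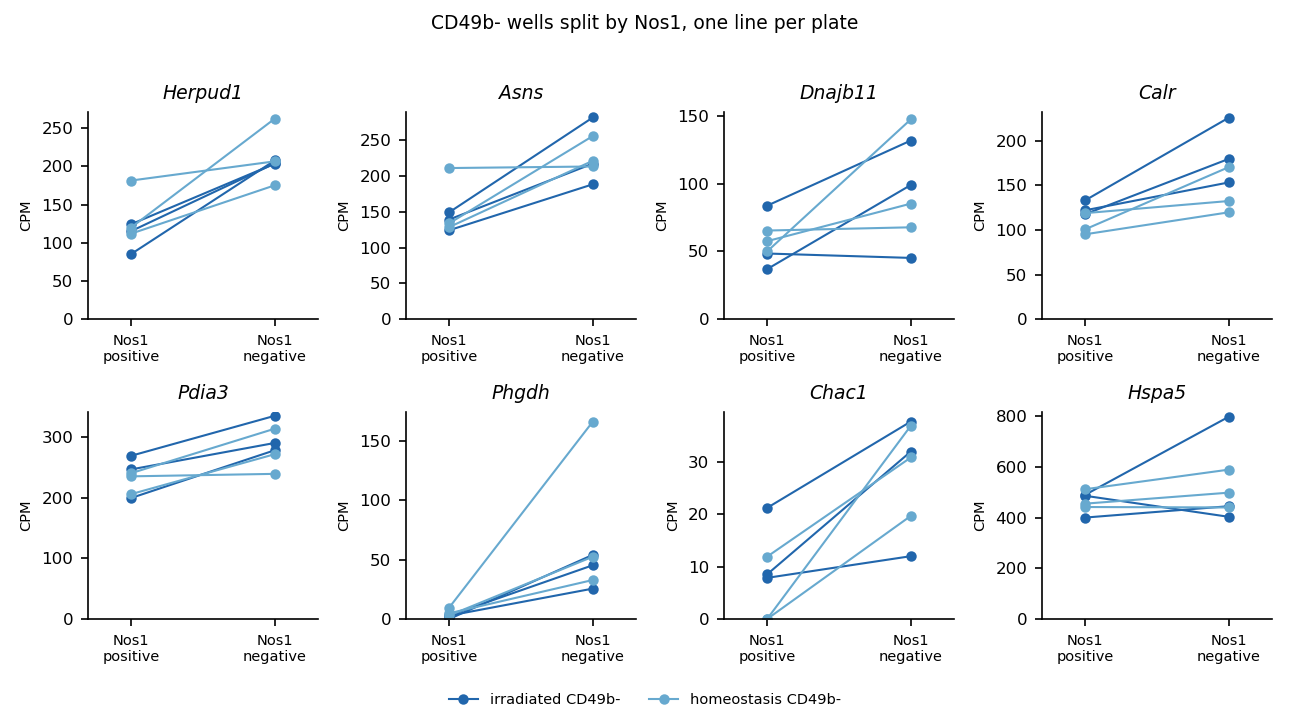
CPM of 8 members in Nos1-positive and Nos1-negative CD49b- wells, with a line for each of the 6 plates. Herpud1, Asns and Phgdh are lower in the Nos1-positive wells of every plate, and Hspa5 is lower in 4 of 6 plates.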

How the data were processed

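The data are whole-number UMI counts per gene and well, deposited by the authors without normalisation. Per the submitters' processing notes, the tools were STAR (2.5.3a) with featureCounts (1.5.3), and both GRCm38 and GRCh38 are listed as builds without a role. Per the labels' protocols, cells were lysed and reverse transcribed in the wells and libraries made with Nextera XT. How UMIs were collapsed and whether counting used strand are not given in the sources used here, so overlapping genes could not be told apart. Among called members, Manf overlaps Rbm15b on its own strand and Dcaf1 on the other, and Pdia4 overlaps Mir704 on its own. Overlaps on the other strand were Atf5 with Nup62 and Il4i1, Pdia6 with Atp6v1c2, Pdia3 with Catsper2 and Ppp1r15a with Tulp2. Psat1 so overlaps Gm3329, Dnajb11 Gm30505 and Herpud1 Gm15890. Their part in the values was not tested.

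The retained wells of a plate were summed and the sums tested with edgeR 4.0.16 in R 4.3.3 (filterByExpr, TMM, 4 group means, quasi-likelihood F test, Benjamini-Hochberg adjustment over 8555 genes, threshold 0.05). CPM are UMIs per 1e+06 of the TMM-scaled plate total. The Nos1 split was fitted with the plate as a block, leaving out wells with 1 Nos1 UMI. The settings were run on simulated counts in which far fewer genes differed than between the gates. That run therefore cannot check the gate calls, and no result here rests on it. Counting intervals are exact binomial at 95% and, like all UMI totals, cover counting error only.

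The gates of a pool share their mice per the labels, so pool numbers pair the plates; the residuals of paired plates had correlations over genes of 0.184, 0.113 and -0.034 for irradiated replicates 1, 2 and 3, and of 0.0971, 0.0431 and 0.0587 for homeostasis replicates 1, 2 and 3. The main p-values measure the spread between plates within a group, each plate from a pool of 2 mice, and leave out the pairing of the gates. Those of the Nos1 split, with the plate as a block, measure the spread of the differences within plates. The members and the gene lists around them were chosen with earlier results of these data known. Per-plate values are given for members past the threshold in any contrast, and from each list the up to 2 genes with the smallest adjusted p. Gene positions are from GENCODE vM21. Alternatives were DESeq2 1.42.0, other scaling, filters and well minimums, thinning, stray wells, the plate set, the pool block and left-out plates; leaving out CD49b+ wells with at least 10 neuron-marker UMIs, and the Nos1 split without filter or without stray wells, were chosen after seeing the data.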

Additional observations from a re-analysis of the deposited data

How the results depend on the processing

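The 53 member calls were recomputed under each alternative, giving 1145 values, of which 1058 kept direction and call, 87 kept direction without the call and 0 reversed; 36 calls were kept throughout and 17 were lost at least once. The replicate block (pool) ended 1 call, Psat1 after irradiation (1.86, adjusted p = 0.0901), and no other.

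Counts of members called lower over both treatments reached 5 when single plates were left out, with a range of 3 to 5. In homeostasis that count was 1 with wells thinned to 1000 UMIs and 2 to 5 with a plate left out; after irradiation it was 1 thinned. For irradiation in CD49b+ cells, members called higher numbered 1 with DESeq2, 1 thinned and 0 to 1 with a plate left out; for the interaction, 1 with DESeq2. In the Nos1 split, members called lower numbered 3 with at least 1 Nos1 UMI as positive, 1 thinned to 3000 UMIs, 2 with no replicate block and 2 to 4 with a plate left out. The cause of these shifts was not tested, except that thinning leaves fewer UMIs and fewer members tested. Scaling by library size alone moved the median of all genes by 0.05 in the gate contrast and by -0.11 for irradiation in CD49b+. Ern1 and Eif2ak3 had at most 8 UMIs in any group and were not tested.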
